A study of Fundulus heteroclitus with 36 samples.

Results

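Aromatase, amh and ERRgammab are 3 genes of the Atlantic killifish, Fundulus heteroclitus, that were followed through the whole brains of 36 embryos. They were found by the names in the RefSeq gene table, and the estimated reads of all transcripts of a gene were summed in each library. All 3 were present among the 31637 genes of the files, and all 3 were among the 23292 genes abundant enough to test. Aromatase is LOC105938561 and ERRgammab is LOC105930570 in that table, and amh has its own symbol. The series compared embryos of 2 populations, those of New Bedford Harbor (NBH) and of Scorton Creek (SCO), sampled at 17 days post fertilization (dpf), with 6 embryos in each of 6 groups and 1 brain per library. NBH Control and SCO Control embryos had parents fed a salmon diet low in methylmercury and received no PCB126. NBH PCB40, NBH PCB400 and SCO PCB40 embryos came from the same low-methylmercury stocks and were bathed in PCB126, a dioxin-like polychlorinated biphenyl, at 40 or 400 ng/L from 1 to 7 dpf. SCO Hg Fed embryos received no PCB126, and their parents ate a tuna diet high in methylmercury. The labels do not give the sex of an embryo, and they do not say which embryos shared parents, so p-values measure the spread between these embryos only.

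Aromatase is the cytochrome P450 enzyme that converts androgens to estrogens. In the brain of adult teleost fish it is known mainly from radial glia, the cells that line the ventricles and act as progenitors. Anti-Müllerian hormone, the product of amh, is a ligand of the TGF-beta family known best for its part in gonad differentiation, where it signals through a type II receptor and SMAD proteins. Estrogen-related receptors are orphan nuclear receptors, which do not bind estrogen as the estrogen receptors do. With PGC-1 coactivators they are known to control genes of energy metabolism. PCB126 acts through the aryl hydrocarbon receptor (AHR), whose classical target is CYP1A, and New Bedford Harbor killifish are known for their resistance to such compounds.

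Depth and exposure were read first. Libraries held 38.5 to 66.5 M estimated reads (median 52.9 M). The floor used for a gene not seen, 3 reads, thus equalled 0.0452 to 0.0779 counts per M of unscaled library size. Gene levels in CPM are counts per M with library sizes scaled by TMM. Floors cover counting error only. CYP1A averaged 6.47 CPM in NBH Control, 80.3 in NBH PCB40 and 396 in NBH PCB400, and 4.71 in SCO Control, 3.32 in SCO Hg Fed and 146 in SCO PCB40. Markers of radial glia and astroglia varied widely in level. gfap averaged 23.3 transcripts per M (TPM, the deposited length-scaled unit) and s100b 783 TPM over the 36 brains. Some other markers were low, with aqp4 at 0.252 TPM and ptgdsa at 0.104 TPM.

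The 3 genes were low but measurable. Estimated reads per library ran from 20 to 161 for Aromatase (median 61.1), from 6 to 77 for amh (median 25) and from 22 to 142.3 for ERRgammab (median 68.1). No library had fewer than 3 reads of any of them. On the length-scaled TPM scale, mean levels over the 36 brains were 0.961 for Aromatase, 0.383 for amh and 1.2 for ERRgammab. These levels were above those of 45%, 35.1% and 47.7% of expressed genes, respectively. The biological coefficient of variation between embryos was 0.42 for Aromatase, 0.41 for amh and 0.44 for ERRgammab. Medians for genes of like abundance were 0.40, 0.48 and 0.40. edgeR gives 1 such value per gene over all 6 groups and draws it toward genes of like abundance. Part of this likeness is thus built in. Aromatase reads were divided over 3 transcripts, with a median of 80.785% on one of 1865 bases and 16.945% on one of 1503 bases; amh and ERRgammab had 1 transcript each.

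A second gene carries the aromatase name in the table. CYP19A1 (LOC105916600) had 0 to 13 estimated reads per library (median 4) and did not pass the filter on low counts. Its mean level was 0.0718 TPM, against 0.961 TPM for Aromatase. In 3 libraries it had 0 reads, which allows no more than the floor of 3 counts. Which of them corresponds to the brain aromatase of other fish is not stated in the table. Estimates of both genes were whole numbers in most libraries, where a read divided between genes would usually leave fractions. In NBH PCB40 replicate 4 both had fractions, 60.3 for Aromatase and 12.9 for CYP19A1. Single reads that Salmon could have divided between the pair cannot be traced.

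**Figure D1:**
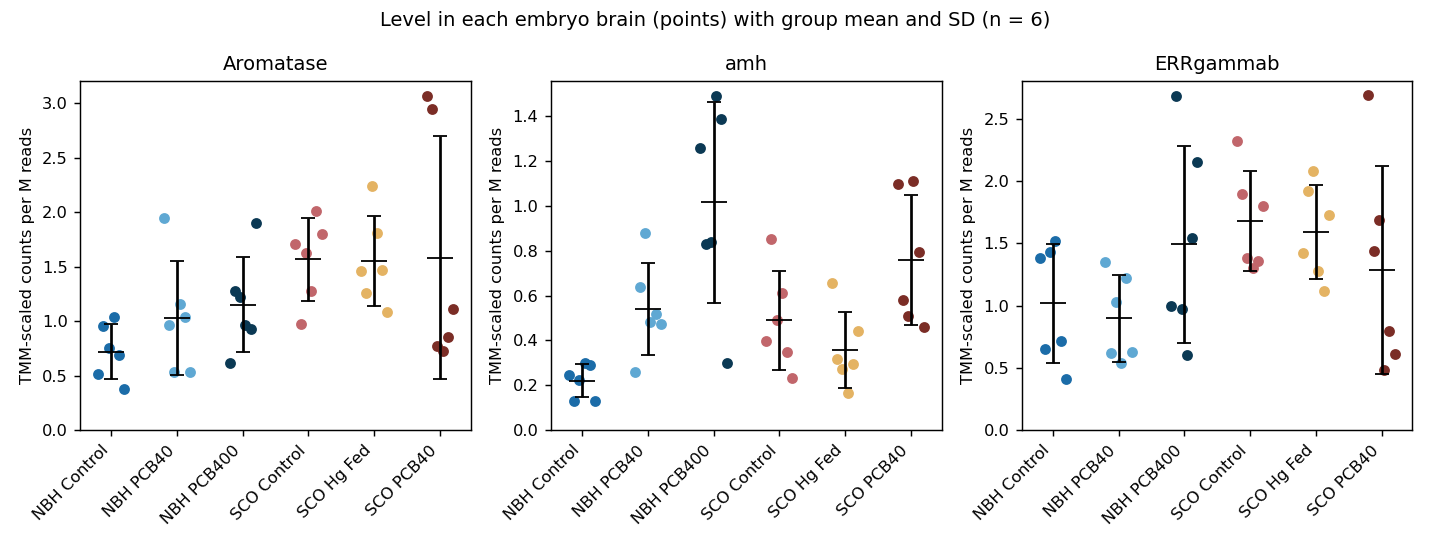
Counts per M (TMM-scaled, y axes from 0) of Aromatase, amh and ERRgammab in each of 36 embryo brains (points), by group, with the group mean and SD (n = 6). NBH PCB400 has 5 of 6 amh points above every NBH Control point, and the Aromatase points of SCO PCB40 divide into 2 at 2.95 and 3.07 CPM and 4 from 0.729 to 1.11 CPM.

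What did PCB126 do to amh in New Bedford Harbor brains? The level of amh ran from 0.131 to 0.301 CPM in NBH Control (median 0.236). It ran from 0.261 to 0.878 CPM in NBH PCB40 (median 0.5), and from 0.298 to 1.49 CPM in NBH PCB400 (median 1.05). The medians thus stood in the order of dose, and in each exposed group all embryos but 1 lay above every control. The exception at the higher dose was replicate 6, at 0.298 CPM, and at the lower dose replicate 1, at 0.261 CPM. At 400 ng/L amh rose 4.57-fold, from a mean of 0.221 CPM (SD 0.0749) to 1.02 CPM (SD 0.449), a log2 fold change of 2.19 (SE 0.39, 95% interval 1.41 to 2.98, edgeR quasi-likelihood adjusted p 0.00218, n = 6 against 6). In this comparison 3.74% of tested genes were called and 1.43% were called higher, and 4.43% had at least 5 of 6 exposed embryos above every control. The call held without each library in turn (log2 2.05 to 2.38) and in the 7 other settings run (2.15 to 2.36).

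Tissue markers differed in level between these groups, without calls. The 9 tested posterior hox genes, which mark hindbrain and spinal cord, had a median log2 fold change of -1.52, with 0 of 9 above 0, and the 15 tested skeletal muscle markers had one of 0.73, with 15 of 15 above 0, against 0.05 over all genes; 0 of either list were called by edgeR. The mean hox score was positive in 6 of 6 NBH Control libraries and in 1 of 6 NBH PCB400 libraries. That library was replicate 6, the embryo with the least amh. The summed hox level ran from 68.1 to 135 TPM in NBH Control and from 30.6 to 134 TPM in NBH PCB400, and that of muscle markers from 16.5 to 107 and from 26.7 to 169 TPM. With the pituitary, hox and muscle scores as covariates the log2 fold change of amh was 2.32 (SE 0.45, edgeR adjusted p 0.0212).

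At 40 ng/L the value of amh in NBH was 2.44-fold that of the controls, at 0.542 CPM (SD 0.205). The log2 fold change was 1.29 (SE 0.38, interval 0.51 to 2.06), with an unadjusted p of 0.00183 and an edgeR adjusted p of 0.79, so it was not called. No gene was called by edgeR in that comparison (0%), and 18 were called by DESeq2. Before adjustment 713 genes, 3.06% of those tested, had an edgeR p under 0.05. That is a smaller share than this threshold gives by itself when nothing differs. Even CYP1A, 12.4-fold higher there (log2 3.63, SE 0.67, edgeR unadjusted p 4.80e-06), was not called (edgeR adjusted p 0.112). At least 5 of 6 embryos lay above every control for 0.477% of tested genes, amh among them, and below every control for 0.623%. Between the doses the difference was 0.91 (SE 0.36, interval 0.16 to 1.65, edgeR adjusted p 0.149, 3 of 6 above every NBH PCB40 embryo), in a comparison with 3.53% of genes called.

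In Scorton Creek, amh ran from 0.233 to 0.853 CPM in SCO Control (median 0.444) and from 0.458 to 1.11 CPM in SCO PCB40 (median 0.688). The groups overlapped widely, with 2 of 6 exposed embryos above every control. The log2 difference was 0.64 (SE 0.36, interval -0.11 to 1.38, edgeR adjusted p 0.366), in a comparison with 2.67% of genes called. The responses of amh to 40 ng/L in the populations differed by 0.65 (NBH minus SCO, SE 0.52, interval -0.41 to 1.71, edgeR adjusted p 0.737), an interval that holds 0 and also differences larger than the response in Scorton Creek. In that test 0.0172% of genes were called. Against SCO Hg Fed, amh in SCO PCB40 was 1.08 higher on the log2 scale (SE 0.37, unadjusted p 0.00605, edgeR adjusted p 0.107), with 3 of 6 embryos above; 2.36% of genes were called there.

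**Figure D2:**
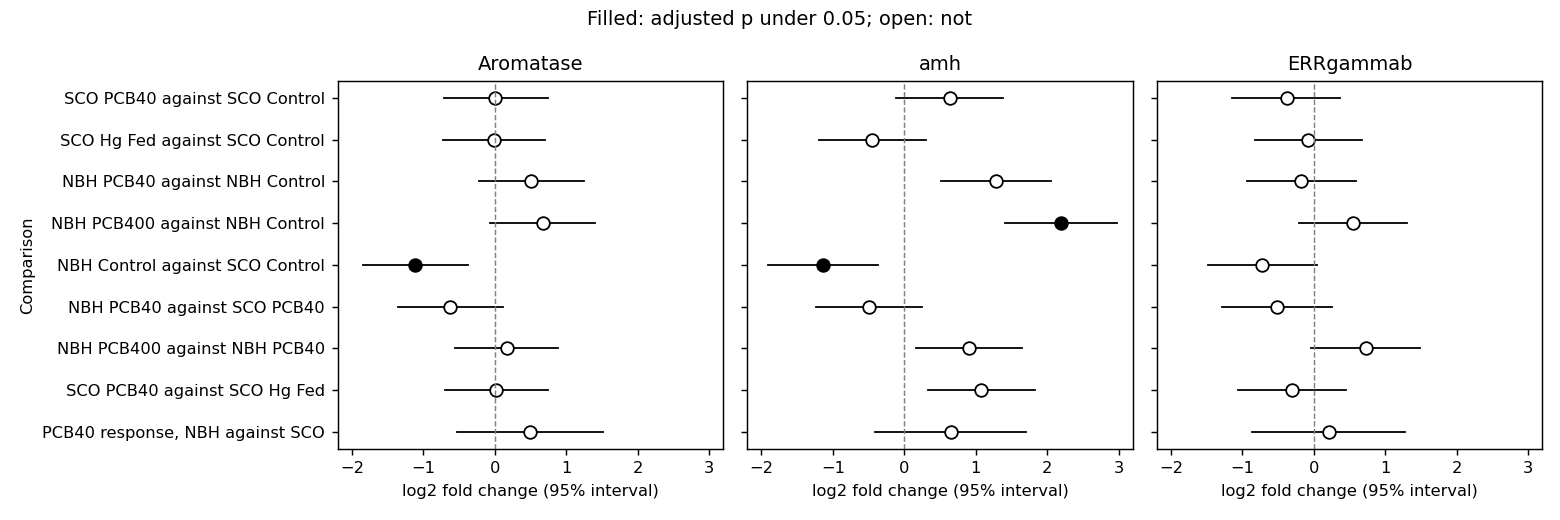
Log2 fold changes of Aromatase, amh and ERRgammab (x axes, 95% intervals) in 9 comparisons (y axis), from 1 edgeR fit to 36 libraries. Of 27 values, 3 are filled (adjusted p under 0.05): amh in NBH PCB400 against NBH Control, at 2.19, and Aromatase and amh in NBH Control against SCO Control, at -1.12 and -1.14.

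Among the New Bedford Harbor embryos, those with more CYP1A mostly had more amh. Within NBH PCB400 the embryo with the least amh, replicate 6, also had the least CYP1A, at 44.5 CPM against 358 to 608 CPM in the other 5. Its ahrr, the AHR repressor gene, was at 0.16 CPM against 0.62 to 1.29 CPM in the others. Among those other 5 the orders of amh and CYP1A differed. Replicate 4 had the most amh, 1.49 CPM, with CYP1A at 408 CPM, and replicate 1 the most CYP1A, 608 CPM, with amh at 1.26 CPM. Replicate 2 was the lowest of these 5 for both, with CYP1A at 358 CPM and amh at 0.829 CPM. In NBH PCB40, replicates 2 and 3 were highest for both genes, with CYP1A at 149 CPM in each and amh at 0.639 and 0.878 CPM. Replicate 6 of that group departed from this, with CYP1A at 7.14 CPM, the lowest of the 6, and amh at 0.474 CPM. In SCO PCB40 the pair did not go together: replicate 1 had the least CYP1A, 97.8 CPM, with amh at 1.1 CPM, and replicate 6 the least amh, 0.458 CPM, with CYP1A at 130 CPM. Over the 36 libraries the log2 levels of amh and CYP1A had a Spearman correlation of 0.69 and a Pearson correlation of 0.72, which was 0.51 after group means were removed. For amh and ahrr the Pearson correlation was 0.58, and 0.14 within groups. The mean of the 4 tested AHR target genes correlated with amh at 0.68, and 0.343% of tested genes lay as far from 0. Within groups it was 0.36, and 4.56% of genes lay as far. Both genes of a pair were measured in the same libraries, and embryos of a group share its exposure, so the values are descriptions. The matching values were weak for Aromatase with CYP1A (Spearman -0.26) and for ERRgammab with CYP1A (-0.21).

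**Figure D3:**
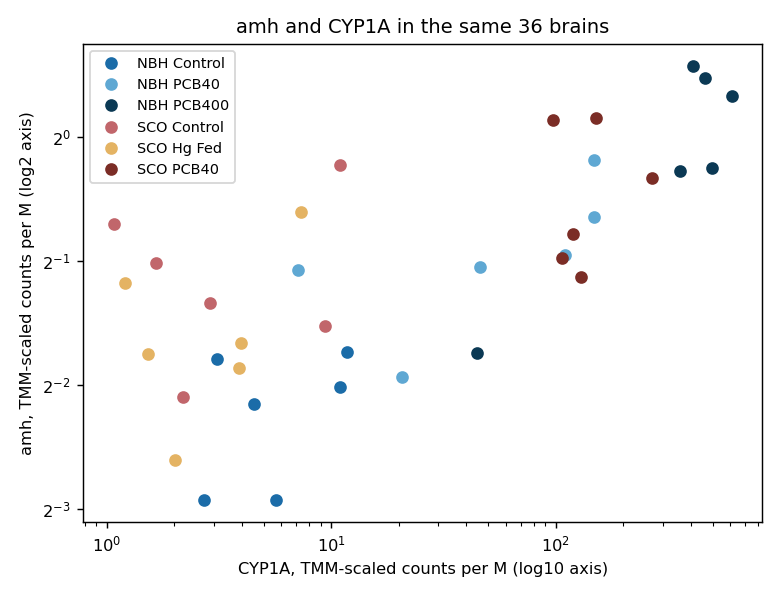
amh (y axis, log2 scale) against CYP1A (x axis, log10 scale), both in TMM-scaled counts per M, in the same 36 brains, coloured by group. The NBH PCB400 embryo at 44.5 CPM of CYP1A and 0.298 CPM of amh stands apart from the other 5 of its group.

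No other gene around amh in its pathway was called in NBH PCB400, where 3.74% of all tested genes were called. At that share, lists this short would often hold 0 calls. Of 14 tested genes for type I and II receptors, SMAD proteins and their Id targets together with amh, amh itself was the 1 called, and the list had a median log2 fold change of -0.03 against 0.05 over all tested genes. The entry for the amh type II receptor, amhr2, had no match in the table. Of 13 other ligands of the TGF-beta family and their antagonists, such as activins, BMPs and follistatin, 0 were called by edgeR (median 0.06). Among 15 tested factors of gonad differentiation, 0 were called (median 0.09). The male pathway gene dmrt1 was not tested: it had 0 reads in 17 libraries and at most 0.0752 CPM. Of the germ cell genes, dazl was at 0 in 20 libraries, whereas ddx4 averaged 1.06 TPM and sycp3 2.89 TPM over the 36 brains. Over 14 germ cell markers the summed level ran from 5.4 to 7.9 TPM in NBH PCB400 and from 4.41 to 6.86 TPM in NBH Control, with 0 of 7 tested members called and 2 of the 14 at 0 in every NBH Control library. In whole brains, a change in the number of cells that express a gene and a change in RNA per cell cannot be told apart.

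How did unexposed brains of the populations compare? Aromatase ran from 0.374 to 1.04 CPM in NBH Control (median 0.72) and from 0.97 to 2.01 CPM in SCO Control (median 1.67). The groups overlapped by 1 NBH embryo, replicate 4 at 1.04 CPM, which lay above the lowest Scorton Creek embryo. The mean was 0.72 CPM (SD 0.253) in NBH and 1.56 CPM (SD 0.378) in SCO, 2.17-fold higher in Scorton Creek (log2 NBH minus SCO -1.12, SE 0.36, edgeR adjusted p 0.032). amh was 2.2-fold higher in SCO Control, at 0.489 CPM (SD 0.22) against 0.221 CPM (SD 0.0749) (log2 -1.14, SE 0.38, edgeR adjusted p 0.0362), with 3 of 6 NBH embryos below every SCO embryo. ERRgammab ran from 0.412 to 1.52 CPM in NBH Control and from 1.3 to 2.32 CPM in SCO Control. It was not called (log2 -0.72, SE 0.37, interval -1.48 to 0.04, edgeR adjusted p 0.176), and its direction turned, to 0.15, with the length slope as a covariate.

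Of all tested genes, 17.4% were called between the control groups and 10.0% were lower in NBH, and 12.9% had at least 5 of 6 NBH embryos below every SCO embryo, so both calls are of a common kind. Neither held in every setting. With the length slope described below as a covariate, Aromatase went to -0.34 (adjusted p 0.633) and amh to -1.50 (adjusted p 0.0589), and the count of called genes went from 4048 to 538. With tissue marker scores as covariates they went to -0.90 (0.129) and -1.34 (0.0574). The Aromatase call ended without NBH Control replicates 1, 5 or 6 or SCO Control replicates 1, 3 or 5, and the amh call without NBH Control replicates 1, 2, 3 or 6 or SCO Control replicates 2, 3 or 4. Without single libraries Aromatase stayed between -1.25 and -0.98 (highest adjusted p 0.0796) and amh between -1.28 and -0.91 (highest 0.108).

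Exposure and Aromatase showed no called change. In NBH PCB40 the gene ran from 0.53 to 1.95 CPM (median 1), and in NBH PCB400 from 0.617 to 1.9 CPM (median 1.1). Both ranges overlapped the controls, with 2 and 3 of 6 embryos above every control. The log2 difference was 0.51 at 40 ng/L (SE 0.36, edgeR adjusted p 1) and 0.68 at 400 ng/L (SE 0.36, interval -0.06 to 1.41, edgeR adjusted p 0.286). The latter went to 0.11 once the length slope was a covariate. In SCO PCB40 the mean of 1.58 CPM stood beside 1.56 CPM in SCO Control, a log2 difference of 0.01 (SE 0.35, interval -0.71 to 0.74, edgeR adjusted p 0.99). That mean hid a wide spread (SD 1.12): replicates 1 and 2 were at 3.07 and 2.95 CPM, above every other brain of the series, and the other 4 ran from 0.729 to 1.11 CPM. At 40 ng/L the populations were compared directly: NBH PCB40 differed from SCO PCB40 by -0.62 for Aromatase (SE 0.36), -0.49 for amh (SE 0.36) and -0.51 for ERRgammab (SE 0.38), with edgeR adjusted p of 0.404, 0.532 and 0.523 and 0.726% of genes called. Between the populations the response of Aromatase to 40 ng/L differed by 0.50 (NBH minus SCO, SE 0.51, edgeR adjusted p 0.802).

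With the parental methylmercury diet none of the 3 genes had a called change, and the ranges of each overlapped those of SCO Control. Aromatase averaged 1.55 CPM (SD 0.417) in SCO Hg Fed, a log2 difference of -0.01 from SCO Control (SE 0.35, interval -0.73 to 0.71). amh averaged 0.358 CPM (SD 0.171), at -0.45 (SE 0.37, interval -1.20 to 0.30), and ERRgammab 1.59 CPM (SD 0.378), at -0.08 (SE 0.37, interval -0.83 to 0.68). Each had an edgeR adjusted p of 1. edgeR called 0 genes in this comparison (0%), and 77 were called by DESeq2. Before adjustment 1270 genes, 5.45% of those tested, had an edgeR p under 0.05. That is close to the share this threshold gives by itself when nothing differs.

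ERRgammab was not called in any of the 9 comparisons. It ran from 0.54 to 1.35 CPM in NBH PCB40, from 0.6 to 2.68 CPM in NBH PCB400 and from 0.486 to 2.69 CPM in SCO PCB40. Exposed groups at the higher dose and in Scorton Creek thus spanned nearly the whole range of the series. Against its controls NBH PCB400 differed by 0.55 (SE 0.38, interval -0.21 to 1.31, edgeR adjusted p 0.418), and SCO PCB40 by -0.38 (SE 0.37, interval -1.14 to 0.37, edgeR adjusted p 0.635). Both directions turned in another setting: the first was -0.14 with the length slope as a covariate, and the second 0.22 in libraries with a positive slope. The order of group means, from NBH PCB40 at 0.898 CPM to SCO Control at 1.68 CPM, had no step between neighbours larger than their SD. The same was true of the order for Aromatase, from NBH Control to SCO PCB40, and for amh, from NBH Control to NBH PCB400.

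ERRgammab is a minor member of its family in these brains. On the TPM scale esrra averaged 26.8, esrrb 22.4, esrrgb 6.67 and esrrga 6.57, against 1.2 for ERRgammab and 0.329 for esrrd. The names are those of the table, which lists ERRbetaa as a synonym of esrrgb, so they do not settle which gene corresponds to which in other fish. The related receptor esrrga fell in SCO PCB40, from 46.1 CPM (SD 5.61) to 32.6 CPM (SD 3.5) (log2 -0.50, SE 0.13, edgeR adjusted p 0.0268), with 6 of 6 embryos below every control, as 1.46% of tested genes had. This call ended in 3 of 8 other settings, with -0.44 (adjusted p 0.0616) under the length slope covariate. It also ended without SCO Control replicates 2, 4 or 5 or SCO PCB40 replicates 4 or 6 (highest adjusted p 0.0734, log2 -0.54 to -0.46). In that comparison 2.67% of all tested genes were called. Among 14 tested receptors and cofactors esrrga was the 1 called gene (median -0.27, against 0.03 over all genes).

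**Figure D4:**
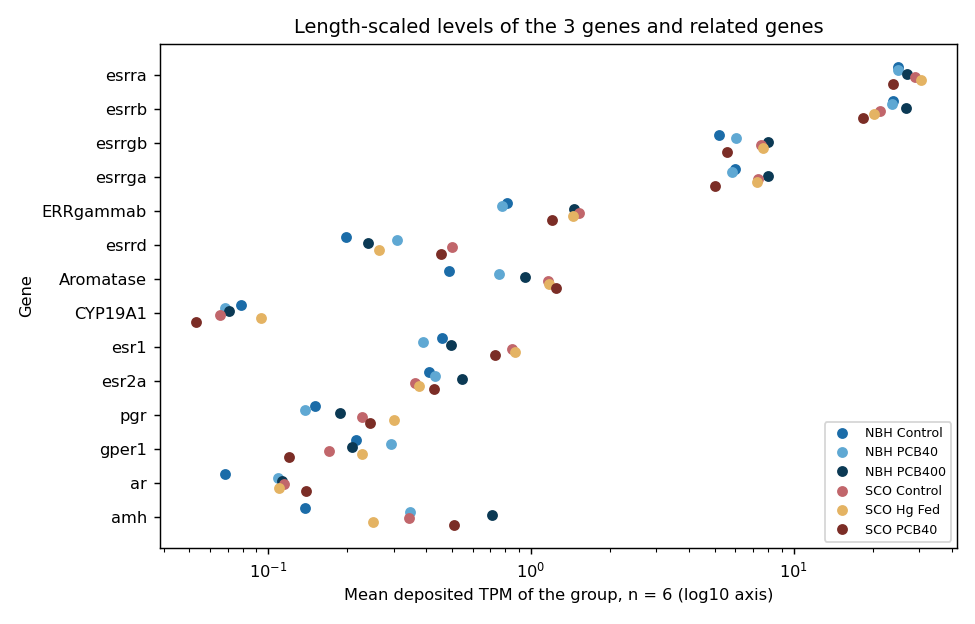
Mean deposited TPM (x axis, log10 scale) in each of 6 groups (n = 6, coloured points) of 14 genes (y axis): the estrogen-related receptors, the aromatase-named genes, sex steroid receptors and amh. From esrra at the top of its family to esrrd the averages over 36 brains run from 26.8 to 0.329 TPM, and CYP19A1, at 0.0718 TPM, is the lowest of the genes drawn.

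The cofactors of the family were followed as well. In NBH PCB400 against its controls, 3.74% of all tested genes were called, and 4.43% had at least 5 of 6 embryos above every control. ncoa1, a steroid receptor coactivator, rose there (log2 0.65, SE 0.17, edgeR adjusted p 0.0278, 5 of 6 above every control), the 1 call among the 14 tested genes (median 0.41, against 0.05). Its call ended with the length slope (0.49, adjusted p 0.0863) and the tissue scores (0.57, 0.157), and without NBH Control replicates 2 or 6 or NBH PCB400 replicates 2, 3 or 5 (0.57 to 0.74). Between the control groups 3 of the 14 were lower in NBH and 0 higher (median -0.41, against -0.01), where 10.0% of all tested genes were called lower and 7.33% higher. They were the corepressor nrip1b (-0.84, SE 0.18, edgeR adjusted p 0.00379), the coactivator ncoa2 (-0.45, SE 0.12, 0.0108) and the PGC-1 alpha gene ppargc1a (-0.56, SE 0.18, 0.0335). All 3 calls ended with the length slope as a covariate, where nrip1b was at -0.32 and ncoa2 at -0.33. There ppargc1a was at -0.02, and its call also ended without NBH Control replicates 1, 2, 3, 4 or 6 or SCO Control replicates 1, 3, 4 or 5 (-0.66 to -0.49, highest adjusted p 0.0762). The calls of ncoa2 and ppargc1a ended with the tissue scores too, and that of nrip1b did not.

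A general list of steroid synthesis enzymes and related genes gave 2 calls with exposure, both at the higher dose. Of its 21 tested genes, 0 were called in SCO PCB40 or NBH PCB40 against their controls, beside 2.67% and 0% of all tested genes. In NBH PCB400, hsd17b7, a 17-beta-hydroxysteroid dehydrogenase also known for a step of cholesterol synthesis, fell from 2.04 CPM (SD 0.821) to 0.825 CPM (SD 0.353). Its log2 fold change was -1.30 (SE 0.30, edgeR adjusted p 0.0176), with 5 of 6 embryos below every control, as 6.17% of tested genes had. porb, named for the P450 reductase that passes electrons to aromatase and other microsomal P450 enzymes, rose from 4.34 CPM (SD 0.854) to 7.74 CPM (SD 1.57). Its log2 fold change was 0.83 (SE 0.21, edgeR adjusted p 0.0266, 6 of 6 above every control), and 0.846% of tested genes had 6 of 6 above. These were the 2 calls of the list, beside 3.74% of all tested genes called. The median of the list was 0.07 against 0.05 over all genes.

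Neither enzyme call held throughout. That of hsd17b7 ended with the tissue scores (-1.28, adjusted p 0.112) and without NBH PCB400 replicates 2 or 5 (log2 -1.55 to -1.16 over the 12 libraries). That of porb ended with the length slope (0.56, 0.101) and the tissue scores (0.80, 0.106), and without NBH Control replicates 2 or 3 or NBH PCB400 replicates 2, 3 or 5 (0.74 to 0.91). Between the controls 3 of the 21 were higher and 4 lower in NBH, with Aromatase among the lower (median 0.05, against -0.01), beside 7.33% and 10.0% of all tested genes. hsd3b7 (0.75, SE 0.20, edgeR adjusted p 0.0123) and hsd17b4 (0.46, SE 0.13, 0.0148) were higher and porb lower (-0.75, SE 0.21, 0.0164). All 3 calls ended with the length slope as a covariate, at 0.69, 0.16 and -0.36, and also with the tissue scores. That of porb ended as well without SCO Control replicate 5 (edgeR adjusted p 0.0533).

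Receptors for estrogens and other steroids were not called with exposure. Mean levels were 0.631 TPM for the estrogen receptor esr1, 0.425 for esr2a, 0.206 for the membrane receptor gper1, 0.208 for the progesterone receptor pgr and 0.109 for the androgen receptor ar. The 9 tested steroid receptor genes take in these 5, pgrmc1 and pgrmc2, and the corticosteroid receptors nr3c1 and nr3c2. Of them edgeR called 0 in NBH PCB40, NBH PCB400, SCO PCB40 or SCO Hg Fed against their controls. Over all tested genes it called 0% in NBH PCB40 and SCO Hg Fed, 3.74% in NBH PCB400 and 2.67% in SCO PCB40. In NBH PCB400, for example, esr1 differed by -0.13 (SE 0.35, edgeR adjusted p 0.871) and esr2a by 0.23 (SE 0.17, 0.455). Between the controls pgrmc1, a membrane progesterone receptor component, was higher in NBH (0.72, SE 0.15, edgeR adjusted p 0.00231, 6 of 6 above, as 5.43% of tested genes had), but it went to 0.30 (adjusted p 0.105) with the length slope as a covariate. pgrmc2, of the same receptor component family, was lower (-2.17, SE 0.77, edgeR adjusted p 0.049, 5 of 6 below, with at least 5 of 6 below in 12.9% of tested genes). That call ended in 3 of 7 other settings (highest adjusted p 0.17) and without NBH Control replicates 2 to 6 or SCO Control replicates 1, 2, 4 or 6 (-3.15 to -1.98). Of 6 tested estrogen-responsive genes, including pgr, greb1 and ctsd, 0 were called in any of the 9 comparisons. The share of all tested genes called in these ran from 0% to 17.4%. The vitellogenin vtg3 was too low to test.

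One measure computed from the expression values of each library moved with 2 of the 3 genes, and what sets it was not tested. The length slope of a library says how far its long transcripts stood above or below its short ones, compared with the average library. It is the change in log2 level for each log2 unit of effective length. It was negative in 6 of 6 NBH Control libraries (-0.116 to -0.035) and positive in 6 of 6 SCO Control and 6 of 6 SCO Hg Fed libraries, 3 of 6 SCO PCB40, 1 of 6 NBH PCB40 and 4 of 6 NBH PCB400 libraries. Over the 36 libraries it correlated with log2 Aromatase at 0.74 and with log2 ERRgammab at 0.76, and at 0.66 for each after group means were removed. For amh the values were -0.05 and -0.30. Correlations as far from 0 were found for 13.1%, 10.9% and 92% of tested genes. Among the controls, slope and population cannot be told apart. The high Aromatase embryos of SCO PCB40, replicates 1 and 2, had slopes of 0.09345 and 0.198, but replicate 3, also positive at 0.01859, had 0.771 CPM. In NBH PCB40 the highest Aromatase, 1.95 CPM in replicate 1, was in the 1 library with a positive slope.

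**Figure D5:**
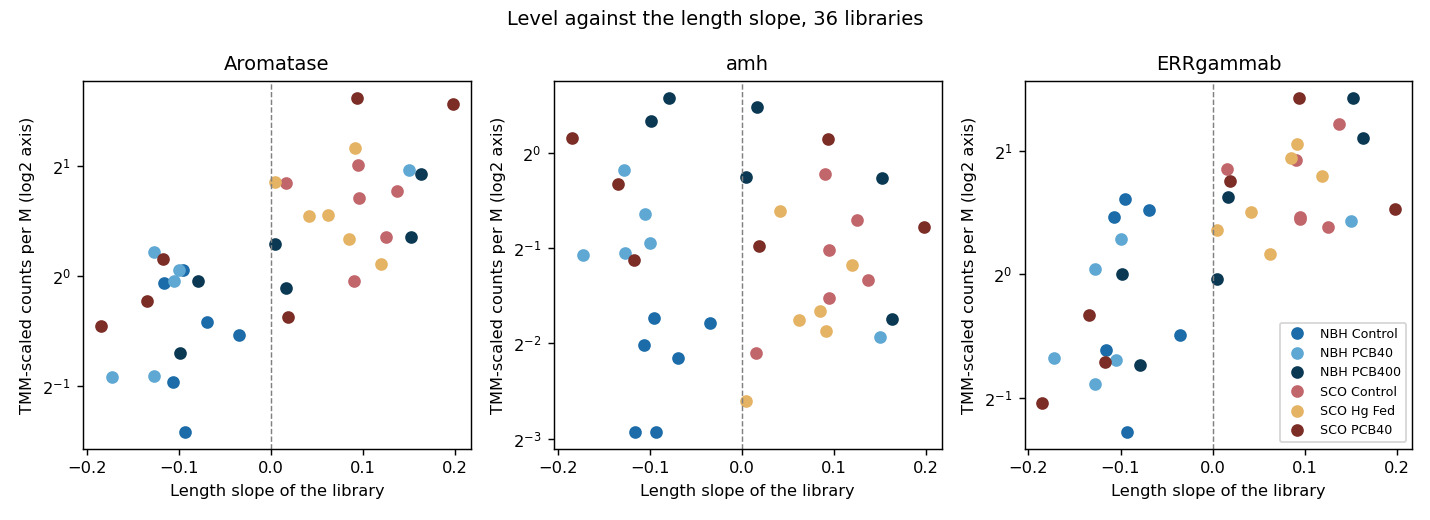
TMM-scaled counts per M (y axes, log2 scale) of Aromatase, amh and ERRgammab against the length slope of the library (x axes, change in log2 expression per log2 unit of transcript length), 36 libraries coloured by group. Aromatase and ERRgammab rise to the right (Pearson correlation 0.74 and 0.76) and amh does not (-0.05).

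Markers of the cells that could carry the genes were compared next. The list of radial glia and astroglia markers had 28 entries, of which 16 matched a gene. Entries without a match included fabp7a, fabp7b, slc1a3b, vim, her4.1 and msi1, so the list covers radial glia only in part. The 16 matched markers summed to between 3600 and 5630 TPM in NBH Control and between 3700 and 6320 TPM in SCO Control. None of these markers was at 0 in every library of a group. Of them 0 were called in NBH PCB400, beside 3.74% of all tested genes. Lower in NBH Control than in SCO Control were 2, beside 10.0% of all tested genes: cx43 (-0.61, SE 0.17, edgeR adjusted p 0.016) and slc4a4a (-0.85, SE 0.27, 0.031). Both calls ended with the length slope as a covariate, at -0.24 and -0.23, and also with the tissue scores. That of slc4a4a ended as well without NBH Control replicates 2, 4 or 6 or SCO Control replicates 3 or 5 (-0.95 to -0.71). The mean of these markers correlated with Aromatase at 0.18, with amh at -0.01 and with ERRgammab at 0.42 over 36 libraries (Pearson), and 44.7%, 97.7% and 3.17% of tested genes lay as far from 0. For telencephalon and forebrain markers the values were -0.52, 0.18 and -0.57, with 14%, 64.4% and 8.15% of genes as far. For hypothalamic neuropeptide genes they were -0.24, -0.06 and -0.43, with 43.4%, 85.6% and 9.94% as far. Within groups they were -0.55, -0.09 and -0.50 for the former and -0.02, 0.16 and -0.50 for the latter. Pituitary marker sums varied widely within groups, from 16.3 to 1040 TPM in NBH Control and from 31.7 to 537 TPM in SCO Control, and their mean had Pearson correlations with the 3 genes of -0.11 to 0.03 and Spearman correlations of -0.20 to 0.11. Skeletal muscle marker sums reached 416 TPM in SCO PCB40 against 53.3 TPM at most in SCO Control, and posterior hox sums ran from 3.68 to 200 TPM over those groups. Of 15 tested muscle markers 6 were called higher in SCO PCB40 than in SCO Control (median 1.83), beside 0.751% of all tested genes. Against SCO Hg Fed 8 were called higher (median 2.56), beside 0.841%. The calls of ckma, ckmb and tnnt3a against SCO Control held in 4, 5 and 3 of 8 other settings. One of these settings, the tissue scores, includes a muscle score made from these same genes. With single libraries left out, the calls held in 7, 9 and 6 of 12 fits. Each call ended without SCO PCB40 replicate 3, the library with the highest muscle score (2.532). The part of these tissues in the levels of the 3 genes was not tested beyond the fits with tissue scores given above. ddx4, a germ cell marker, was higher in NBH Control than in SCO Control (2.28, SE 0.56, edgeR adjusted p 0.00795). It was the 1 of 7 called, where 7.33% of all tested genes were called higher, while amh was lower there. The mean of the germ cell markers correlated with amh at 0.35 over 36 libraries and at 0.37 within groups, where 16.1% and 4.01% of tested genes lay as far from 0. In the comparison of controls ddx4 went, with the length slope as a covariate, to 2.01 (adjusted p 0.106).

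The 3 genes did not vary as a unit. Over the 36 libraries Aromatase and ERRgammab had a Spearman correlation of 0.54, Aromatase and amh -0.13, and amh and ERRgammab -0.05. Among the named genes most like Aromatase in log2 CPM, by Spearman correlation, were nfil3-5 (0.85), eea1 (0.85), fgf22 (0.84) and si:rp71-1g18.1 (0.84). For ERRgammab they were flot1a (0.82), erbb3b (0.82), clec16a (0.81), si:dkey-71h2.2 (0.80) and cabp7b (0.80). For amh they were bco1 (0.78), cyth4b (0.75), tnfsf14 (0.73), angptl1a (0.70) and grna (0.70). After group means were removed, Pearson correlations were 0.70 to 0.79 for the genes named beside Aromatase, 0.74 to 0.79 for those most like ERRgammab and 0.45 to 0.59 for those most like amh. The genes were measured in the same libraries, which differ in depth, length slope and group, so these are descriptions of the series.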

How the data were processed

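RNA of 36 whole embryo brains had been sequenced, and each deposited file held 56244 RefSeq transcripts of 1 library. The authors deposited expected counts, which are Salmon's estimates of reads per transcript with no normalisation, beside TPM and transcript lengths in bases. Per the submitters' processing notes edgeR 3.30.3 and Salmon 1.3.0 were used, without their roles. The genome build, trimming and filters are not given in the sources used here, so no coordinates are printed. All transcripts matched a gene of the RefSeq table (assembly MU-UCD_Fhet_4.1, used for names only).

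The counts of a gene's transcripts were added up and rounded. edgeR 4.0.16 (R 4.3.3) kept 23292 genes by filterByExpr by group, scaled libraries by TMM and fitted group means to all 36 libraries in 1 quasi-likelihood model. A two-sided test was made in 9 comparisons, and calls needed an adjusted p under 0.05 (Benjamini-Hochberg, over all tested genes). Fold changes are log2 with SE, and levels are mean CPM with SD (n = 6). Levels of different genes were compared by the deposited TPM, summed per gene. The common biological coefficient of variation was 0.389. No libraries held identical values.

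The members and the 15 gene lists (355 entries, 227 matched by symbol or synonym) were chosen with earlier results of these data known. The text draws its names from the 3 members, CYP1A and ahrr, up to 3 called members of a list per comparison, and the 5 named genes most like each member by Spearman correlation. Not all genes under this rule are reported here. gfap, s100b, aqp4, ptgdsa, and the receptors and related genes given only by their levels were chosen after their values were seen. So were list members named for not being tested or called. Tissue scores are the mean log2 deviation of markers of pituitary and skeletal muscle and of posterior hox genes. The length slope used genes above 2 log2 CPM. Alternatives were RLE factors, DESeq2 1.42.0, no filter, only the groups compared, a replicate block, the length slope or tissue scores as covariates, and leaving out each library. Fits to libraries with slopes of 1 sign were added after seeing the data. The steps were tested on simulated data.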

Additional observations from a re-analysis of the deposited data

How the results depend on the processing

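Of the 27 values of the 3 genes, the call of amh in NBH PCB400 against NBH Control held in all alternatives run. The 2 calls between the controls did not, as given in the text: with the length slope as a covariate Aromatase was at -0.34 and amh at -1.50, and with the tissue scores at -0.90 and -1.34. Without single libraries they ran from -1.25 to -0.98 and from -1.28 to -0.91. None of the 24 values that were not called became called under any alternative. Several of these changed sign, some from values as far from 0 as -0.72 and 0.55, and the cause was not tested. With the length slope as a covariate Aromatase went to 0.10 in SCO Hg Fed against SCO Control and to -0.27 between the NBH doses. ERRgammab then went to 0.02 in SCO Hg Fed, -0.14 in NBH PCB400, 0.15 between the controls and -0.24 in the difference of the PCB40 responses. With the tissue scores Aromatase in SCO Hg Fed and ERRgammab in NBH PCB40 went to 0.00, and tnnt3a, a muscle gene in its own score, to -0.04 in SCO PCB40. In libraries with positive slopes ERRgammab in SCO PCB40 was at 0.22 against controls and 0.29 against SCO Hg Fed, and in those with negative slopes it was at 0.35 in NBH PCB40 against SCO PCB40.

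Without single libraries Aromatase ran from -0.29 to 0.16 in SCO PCB40 against SCO Control, -0.28 to 0.17 against SCO Hg Fed, -0.14 to 0.08 in SCO Hg Fed against SCO Control and -0.03 to 0.45 between the NBH doses. ERRgammab ran from -0.17 to 0.04 in SCO Hg Fed.

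Replicate numbers did not pair the libraries: deviations of same-numbered libraries from their group means correlated at a median of 0.0146 (-0.286 to 0.361, 90 pairs), against -0.00365 for the others. With a replicate block Aromatase in SCO PCB40 went to -0.10 against SCO Control and -0.07 against SCO Hg Fed, and amh in NBH PCB400 was at 2.15; the block changed no call of the 3 genes.

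Counts over all genes moved more than these values. In NBH PCB400 against NBH Control 870 genes were called, 60 with the tissue scores and 1556 with DESeq2. Between the controls 4048 were called, 538 with the length slope as a covariate and 6270 in a fit of only those groups. In SCO PCB40 against SCO Control 622 were called, 98 in a fit of only those groups and 1470 without SCO PCB40 replicate 2. Depth limits amh most: 6 reads in the lowest library.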
